A study of Mus musculus with 8 samples.

Results

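The question here was whether the loss of Nudt21 changed gene expression differently in resting and in stimulated macrophages. All 8 RNA-seq samples of the series entered it (8 of 8), since they form a design of 2 genotypes by 2 conditions. RNA came from bone marrow-derived macrophages (BMDMs), which are grown in culture from mouse bone marrow. WT samples were from LysM-Cre littermates on the C57BL/6 background, and Nudt21-cKO samples from Nudt21 fl/fl LysM-Cre mice, so every sample carried the Cre. There were 4 groups of 2 samples. Both genotypes were taken unstimulated (0 h) and after IFNγ overnight followed by LPS for 4 h (4 h). The titles and the methods of the study set the 0 h samples apart as unstimulated, while the treatment field of their labels names the stimulation for all 8. Each sample pooled the cells of 2 mice, LysM-Cre acts in myeloid cells and may leave some cells unrecombined, and no group received IFNγ or LPS alone. p-values therefore measure the spread between 2 pools per group. Of 21080 gene symbols, 16114 had a mean scaled coverage of at least 0.5 and were tested. The genotype effect of a gene is its log2(cKO/WT), and the shift is its effect at 4 h minus its effect at 0 h. An upward shift means that the cKO/WT ratio was higher after stimulation, and a downward shift that it was lower.

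NUDT21, also called CFIm25, is a subunit of cleavage factor Im, which binds UGUA in nascent RNA and favours distal polyadenylation sites. Its loss is known to shift many mRNAs to proximal sites and shorter 3′UTRs. IFNγ acts through JAK kinases and primes macrophages, and LPS is sensed by TLR4, which drives NF-κB, MAP kinases and, through a second branch, interferon β and its target genes. Stimulated macrophages switch on cytokines, chemokines, antigen presentation and nitric oxide synthesis, and switch off much of the resting programme.

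The summed coverage of the samples ranged from 14950347 to 17954882 in the 8 samples. Nudt21, on chromosome 8 of GRCm38 from 94015496 to 94037031, had a scaled coverage of 506 and 452 (WT) against 107 and 108 (cKO) at 0 h, and 954 and 869 (WT) against 184 and 149.9 (cKO) at 4 h. Its genotype effect was -2.16 at 0 h and -2.45 at 4 h, and its shift of -0.30, SE 0.17, adjusted p = 0.337 was not called. The effect on Cpsf6, its partner in the factor, was 1.49 and 1.62, with a shift of 0.13, SE 0.14, adjusted p = 0.606. Under quantile normalization the shifts of Nudt21 and Cpsf6 had the other sign, so neither direction is settled. The 8 macrophage markers summed to between 80600 and 93700 in the 8 samples. B cell markers, of which 4 of 7 passed the filter, summed to 390 to 407 in WT and 568 to 604 in cKO at 0 h, and to 178 to 196 in WT and 81.4 to 96.2 in cKO at 4 h. Markers of neutrophils and their precursors summed to 17000 to 23300 at 0 h and 29600 to 33800 at 4 h, with overlapping genotypes at 4 h. T and NK cell markers summed to 124 to 146 in WT and 95.6 to 101 in cKO at 0 h and to 21.3 to 45.4 at 4 h, and erythroid markers to 2.2 to 8.73. The mast cell list was lower in cKO at both times, at 13.4 to 14 in WT and 5.68 to 9.13 in cKO at 0 h and 34.5 to 59.1 and 16.9 to 22.1 at 4 h. The dendritic cell list overlapped at 0 h and summed to 410 to 509 in WT and 318 to 337 in cKO at 4 h, with 0 called genes in any of these lists. Sex-linked genes, of which those of the Y chromosome were present in all 8 samples, summed to 1810 to 1880 in WT and 1250 to 1730 in cKO at 0 h, and to 2520 to 2570 in WT and 1120 to 1680 in cKO at 4 h, and Ddx3y was called, with a shift of -0.51, SE 0.10, though not under every scaling. Whether these other cells or the make-up of the pools had a part in the results was not tested. In bulk RNA fewer cells of a type and less RNA per cell cannot be told apart.

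With limma and an adjusted p under 0.05, 1178 genes shifted, 585 upward (3.63% of those tested) and 593 downward (3.68%). An unadjusted p under 0.05 was found for 4043. For comparison, the genotype effect itself was called for 11.3% of genes at 0 h and 20.7% at 4 h at a fold above 1.5 with an unadjusted p under 0.05. These calls sorted the 1178 genes by how the effect changed. The effect appeared with stimulation in 572 genes, which were called at 4 h and not at 0 h, 309 upward and 263 downward. It vanished in 163, which were called at 0 h and not at 4 h. It grew in 46 genes and shrank in 7 with the same direction at both times. In 62 genes it reversed, 42 of them from lower to higher in cKO and 20 from higher to lower. The remaining 328 passed the genotype call at neither time.

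**Figure D1:**
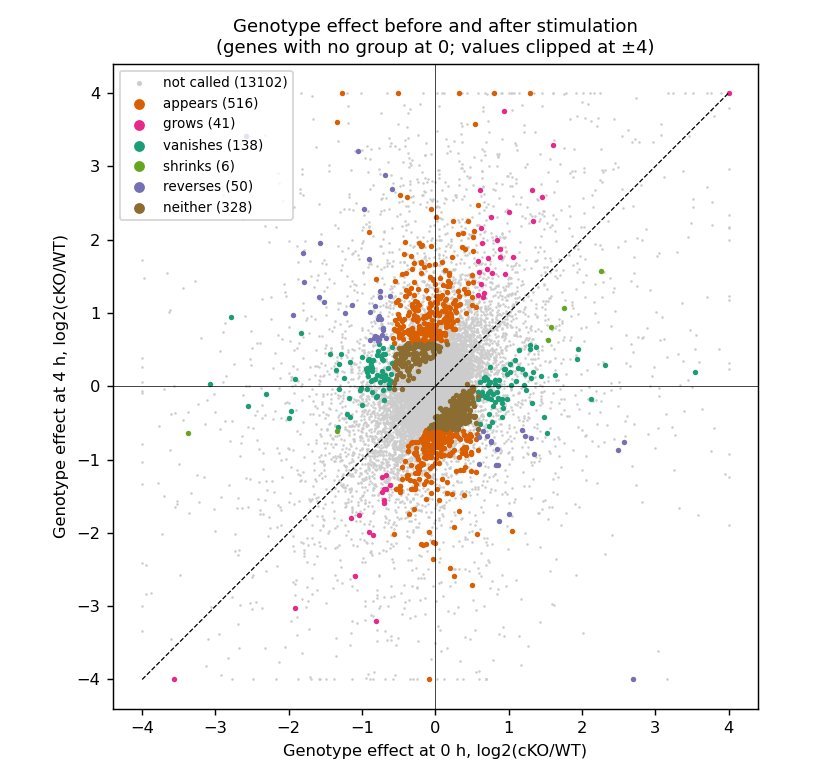
Genotype effect at 0 h (x axis) against that at 4 h (y axis), as log2(cKO/WT) with values clipped at ±4, for the tested genes with no group listed at 0; each point is a gene, coloured by class, and the dashed line marks equal effects. Genes whose effect appeared lie above and below the centre, those whose effect vanished lie left and right, and reversing genes lie at the upper left and lower right.

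The direction split depended on scaling. Samples were set to the same median ratio, because the median gene differed between groups in the deposited values. Without that step 1035 genes shifted upward and 247 downward (80.7% upward against 49.7%), with the median gene shifted by 0.20, and at equal total coverage 720 and 301 (70.5% upward, median 0.11). Median-centring, added after the data were seen, gave 452 and 701 (39.2% upward). No gene called in one direction was called in the other under these scalings. Under the scaling used here, equal total coverage, values as deposited and quantile normalization, 653 genes were called throughout, 432 upward and 221 downward, among them 51 of the 62 that reversed. Changes on stimulation within a genotype depend on the scaling as well, since the median gene changed by -0.04 in WT and -0.02 in cKO under the scaling used here, by -1.24 and -1.03 with values as deposited and by -1.19 and -1.06 at equal total coverage. Statements below that a gene rose or fell are relative to the median gene, and small ones turn without that step. Genes named below belong to these 653 except where a sentence says otherwise, and "every scaling" below means these 4. Median-centring is not among them, and 15 of 153 named and called genes lost the call under it. With 1 sample left out the residual degrees of freedom fell from 4 to 3 and the number of calls ranged from 0 to 1723. It was 0 without cKO 0 h replicate 3, cKO 0 h replicate 4 or cKO 4 h replicate 4, where limma still gave 3024, 2967 and 3092 genes at an unadjusted p under 0.05. It was 90 without cKO 4 h replicate 3, 431 and 374 without WT 0 h replicate 1 or 2, 1351 without WT 4 h replicate 1 and 1723 without WT 4 h replicate 2. In all 8 of these fits 1176 of the 1178 genes kept their direction with an unadjusted p under 0.05, and the other 2 fell below the coverage filter in some fits. Since these genes were chosen in the fit of all 8 samples and each of these fits shares 7 of them, this is no independent sign of stability, and the number past the adjusted threshold depended on single samples.

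Genes that were lower in resting cKO cells and higher in stimulated ones formed the larger group of reversals. Adgre4 (chromosome 17, 55749984 to 55853662), an adhesion G protein-coupled receptor of the EMR family found on macrophages, had a scaled coverage of 154 and 192 (WT) against 77 and 89.5 (cKO) at 0 h. At 4 h it was 16.6 and 14 (WT) against 129.6 and 154 (cKO). The change on stimulation was -3.49 in WT and 0.76 in cKO (-4.69 and -0.23 as deposited), so the effect went from -1.05 to 3.20, a shift of 4.25, SE 0.27, adjusted p = 0.00685. Abhd15 (chromosome 11, 77515121 to 77538607), a hydrolase-domain protein, showed 376 and 387 (WT) against 195 and 194 (cKO) at 0 h and 7.99 and 5.92 (WT) against 34.4 and 40.4 (cKO) at 4 h. It fell in both genotypes, with log2 changes of -5.77 in WT and -2.38 in cKO, with a shift of 3.39, SE 0.27, adjusted p = 0.00685. Frat2 (chromosome 19, 41845972 to 41848132), which binds GSK3 and acts in Wnt signalling, followed the same course, at 153 and 116 (WT) against 85.7 and 79.6 (cKO) at 0 h and 2.67 and 3.36 (WT) against 20.6 and 24.8 (cKO) at 4 h (shift 3.57, SE 0.37, adjusted p = 0.00771). In each of these genes both cKO samples lay below both WT samples at 0 h and above them at 4 h.

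Other reversing genes were induced, and more so in cKO. Enpp4 (chromosome 17, 44096308 to 44105809), an ectoenzyme that splits dinucleotides, was at 38 and 28.6 (WT) against 9.57 and 12.7 (cKO) at 0 h and at 277 and 221 (WT) against 898 and 1024 (cKO) at 4 h. Its coverage rose by 2.91 in WT and 6.43 in cKO on the log2 scale (shift 3.52, SE 0.31, adjusted p = 0.00685). Spry1, a feedback inhibitor of receptor tyrosine kinase signalling, went from 3.22 and 1.96 (WT) against 0.75 and 0.556 (cKO) at 0 h to 24.5 and 9.72 (WT) against 49.2 and 60.7 (cKO) at 4 h, a shift of 3.63, SE 0.81, adjusted p = 0.0437 on a low base. Ifit1bl1, an IFIT family gene, was at 4.67 and 9.28 (WT) against 0 and 0 (cKO) at 0 h, the zeros as listed, and at 267 and 216 (WT) against 551 and 569 (cKO) at 4 h. No fold is given for it at 0 h, and the IFIT family holds close copies among which reads can be split.

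Reversal in the opposite direction, from higher to lower in cKO, included the cytokine Il1a (chromosome 2, 129299610 to 129309972), an alarmin of the IL-1 family. Its scaled coverage was 34.8 and 45.8 (WT) against 117 and 84.1 (cKO) at 0 h and 248956 and 142785 (WT) against 114292 and 115916 (cKO) at 4 h. The rise on stimulation was 12.20 in WT and 10.18 in cKO on the log2 scale, and the effect moved from 1.31 to -0.71 (shift -2.02, SE 0.39, adjusted p = 0.0303). The WT 4 h samples differed widely from each other, and the lower of them was still above both cKO samples. Zfp51 (chromosome 17, 21450374 to 21465587), a KRAB zinc finger gene of a family with close copies, was at 20.8 and 18.1 (WT) against 43 and 56.5 (cKO) at 0 h and at 61.1 and 57.6 (WT) against 32.3 and 30.3 (cKO) at 4 h, a shift of -2.26, SE 0.31, adjusted p = 0.0142. Dppa3, a gene best known from germ cells and the early embryo, was at 30.9 and 33.2 (WT) against 58.8 and 70.7 (cKO) at 0 h and 31.3 and 16.1 (WT) against 6.92 and 6.31 (cKO) at 4 h, with a shift of -2.75, SE 0.50, adjusted p = 0.0265. Ighm, the immunoglobulin μ heavy chain of B cells, shifted by -1.90, SE 0.20, adjusted p = 0.00794, from 305 and 300.2 (WT) against 517 and 559.8 (cKO) at 0 h to 160.1 and 179 (WT) against 70.7 and 91.7 (cKO) at 4 h. It moved with the B cell list given above, whose largest part it is.

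**Figure D2:**
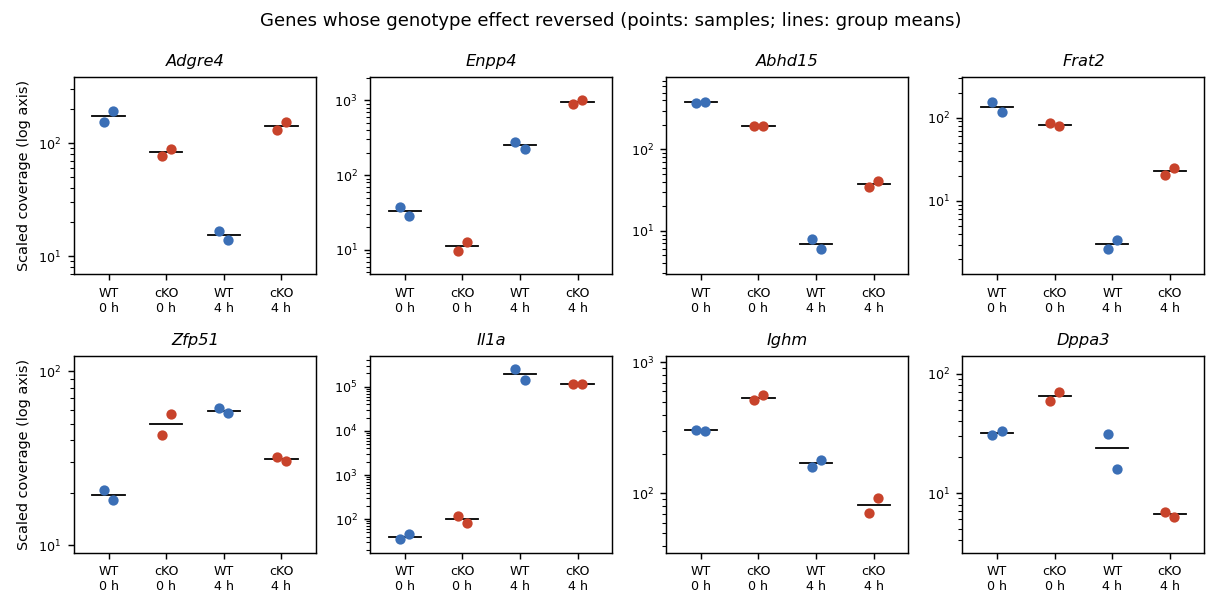
Scaled coverage (log y axis) of 8 reversing genes in the 8 samples, WT in blue and cKO in red at 0 h and 4 h, with a line at each group mean. In the upper row cKO lies below WT at 0 h and above it at 4 h, and in the lower row the order is the other way round.

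Among the genes whose effect appeared, Ccr1 (chromosome 9, 123962124 to 123968692), a receptor for CCL3 and CCL5, had 609.9 and 661 (WT) against 733 and 548 (cKO) at 0 h and 1549 and 1521 (WT) against 377 and 319 (cKO) at 4 h. The genotypes overlapped at rest. Stimulation moved Ccr1 by 1.27 in WT and -0.87 in cKO (0.07 and -1.87 as deposited), so that the effect went from 0.00 to -2.14 (shift -2.14, SE 0.21, adjusted p = 0.00735). Clec10a (chromosome 11, 70156197 to 70170834), a galactose-binding C-type lectin, was at 57.2 and 56.2 (WT) against 91.2 and 78.1 (cKO) at 0 h and 86.8 and 123 (WT) against 27.4 and 23.9 (cKO) at 4 h, a shift of -2.58, SE 0.30, adjusted p = 0.00949. The cKO samples were the higher at rest, though under the 1.5-fold limit, and the lower after stimulation.

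Ago3 (chromosome 4, 126331704 to 126429556), an Argonaute protein that carries small RNAs, was induced in both genotypes and less in cKO. Its values were 146 and 161 (WT) against 178 and 183 (cKO) at 0 h and 1147 and 1014 (WT) against 424 and 360.2 (cKO) at 4 h, a shift of -1.70, SE 0.16, adjusted p = 0.00703. Tppp3, a tubulin-binding protein, rose from single digits to 215 and 235 (WT) against 50 and 38.6 (cKO), with a shift of -2.31, SE 0.46, adjusted p = 0.0328. Rpusd3, a mitochondrial pseudouridine synthase gene, went from 25 and 24.3 (WT) against 36.5 and 33.2 (cKO) at 0 h to 11.4 and 12.2 (WT) against 1.39 and 2.1 (cKO) at 4 h (shift -3.21, SE 0.49, adjusted p = 0.0172). Fcgr2b, the inhibitory receptor for IgG, changed by 1.21 in WT and 0.09 in cKO on the log2 scale (0.01 and -0.91 as deposited), to 4775 and 4253 (WT) against 2159.7 and 1721 (cKO) at 4 h (shift -1.12, SE 0.16, adjusted p = 0.0157). Fcgr3, an activating receptor for IgG, shifted by -0.83, SE 0.12, adjusted p = 0.0142, from 12678 and 13634 (WT) against 12883 and 12329.7 (cKO) at 0 h to 16545 and 16781 (WT) against 9078 and 8878 (cKO) at 4 h. Both genes lie on chromosome 1. Retnlg, a neutrophil-type gene and the called member of its marker list, was at 34 and 32 (WT) against 14.1 and 17.7 (cKO) at 0 h, and at 3.04 and 7.98 (WT) against 0 and 0 (cKO) at 4 h.

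The upward counterparts were genes that rose more, or fell less, in cKO cells. Klf4 (chromosome 4, 55527143 to 55532466), a zinc finger transcription factor of monocytes and macrophages, was at 57.4 and 48 (WT) against 45.3 and 44.6 (cKO) at 0 h and at 354 and 224 (WT) against 968 and 1228 (cKO) at 4 h. Its shift was 2.17, SE 0.32, adjusted p = 0.016, from an effect of -0.22 to 1.95. Jund, an AP-1 subunit, overlapped at 0 h and reached 3723 and 3104 (WT) against 7519 and 8459.7 (cKO) at 4 h (shift 1.20, SE 0.18, adjusted p = 0.0159). They were the 2 called genes among 28 tested of the AP-1, EGR and immediate early list (7.14%, against 3.63% of all genes), in which 1 was called downward under quantile normalization and with median-centring. Zfp503, a zinc finger repressor, was at 48.2 and 36.6 (WT) against 65.1 and 57.3 (cKO) at 0 h and at 7.99 and 8.57 (WT) against 85.7 and 117 (cKO) at 4 h (shift 3.04, SE 0.35, adjusted p = 0.00934). Zfp503 changed by -2.33 in WT and 0.71 in cKO, and by -3.52 and -0.28 as deposited. Glrp1, on chromosome 1, and Acot1, an acyl-CoA thioesterase with close copies on chromosome 12, nearly disappeared from stimulated WT cells. Glrp1 was at 0.153 and 0.159 (WT) against 6.47 and 7.85 (cKO) and Acot1 at 0 and 0.095 (WT) against 5.89 and 8.07 (cKO) at 4 h, with shifts of 6.10, SE 0.90, adjusted p = 0.0159 and 5.33, SE 0.66, adjusted p = 0.0106. Both fitted shifts depend on the pseudocount of 0.1, since the WT values were close to or at 0.

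For 37 of the 309 genes of this kind a group was listed at 0. Gsta3, a glutathione transferase, was at 79.7 and 39.8 (WT) against 63.2 and 91.2 (cKO) at 0 h and at 0 and 0 (WT) against 14.8 and 15.5 (cKO) at 4 h. Cbr2, a carbonyl reductase, was at 56.9 and 37.4 (WT) against 79.6 and 93.2 (cKO) at 0 h and at 0 and 0 (WT) against 11.8 and 16.6 (cKO) at 4 h. Tmem151a was at 17.8 and 23.4 (WT) against 33 and 29.8 (cKO) at 0 h and at 0 and 0 (WT) against 20.7 and 37.1 (cKO) at 4 h. A value listed at 0 can be a failed estimate. Among the tested genes the WT 4 h samples had the most of them, 1858 and 1537, against 1239 and 1403 in cKO at 4 h and 921 to 989 at 0 h. In all 99 of the 1178 called genes had such a group. The other 1079 shifted upward in 527 and downward in 552 cases. When all genes with such a group were left out after the fit and only the p-values were adjusted again, 1124 genes were called, 546 upward and 578 downward. Scaling and fit still included those genes.

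The effect grew upward in 29 genes. Gdf15 (chromosome 8, 70629393 to 70632456), a stress-induced cytokine of the TGF-β family, was at 227 and 165 (WT) against 389 and 352 (cKO) at 0 h and at 204 and 135 (WT) against 1824 and 2770.4 (cKO) at 4 h. Stimulation moved it by -0.22 in WT and 2.60 in cKO, and the effect went from 0.94 to 3.76 (shift 2.82, SE 0.38, adjusted p = 0.0129). Ctsk (chromosome 3, 95499256 to 95509362), the cathepsin of osteoclasts, was at 281 and 361 (WT) against 1051 and 897 (cKO) at 0 h and fell to 28.4 and 27.2 (WT) against 292 and 253 (cKO) at 4 h. The fall was larger in WT, and the shift was 1.68, SE 0.21, adjusted p = 0.0108. Creg2 (chromosome 1, 39618406 to 39651474) fell less in cKO, to 18.2 and 15.1 (WT) against 110.4 and 102 (cKO) at 4 h, after 85.9 and 96.5 (WT) against 145 and 133 (cKO) at 0 h (shift 2.07, SE 0.23, adjusted p = 0.00899). The effect grew downward in 17 genes. Slc9a9, a sodium-proton exchanger of endosomes, was at 684 and 749 (WT) against 354 and 318 (cKO) at 0 h and 151 and 167 (WT) against 27.2 and 25.7 (cKO) at 4 h (shift -1.49, SE 0.16, adjusted p = 0.00814). Stap1, an adaptor of tyrosine kinase signalling, was at 938 and 994 (WT) against 549.9 and 519 (cKO) at 0 h and 1883 and 1473 (WT) against 428 and 385 (cKO) at 4 h (shift -1.18, SE 0.17, adjusted p = 0.0159).

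**Figure D3:**
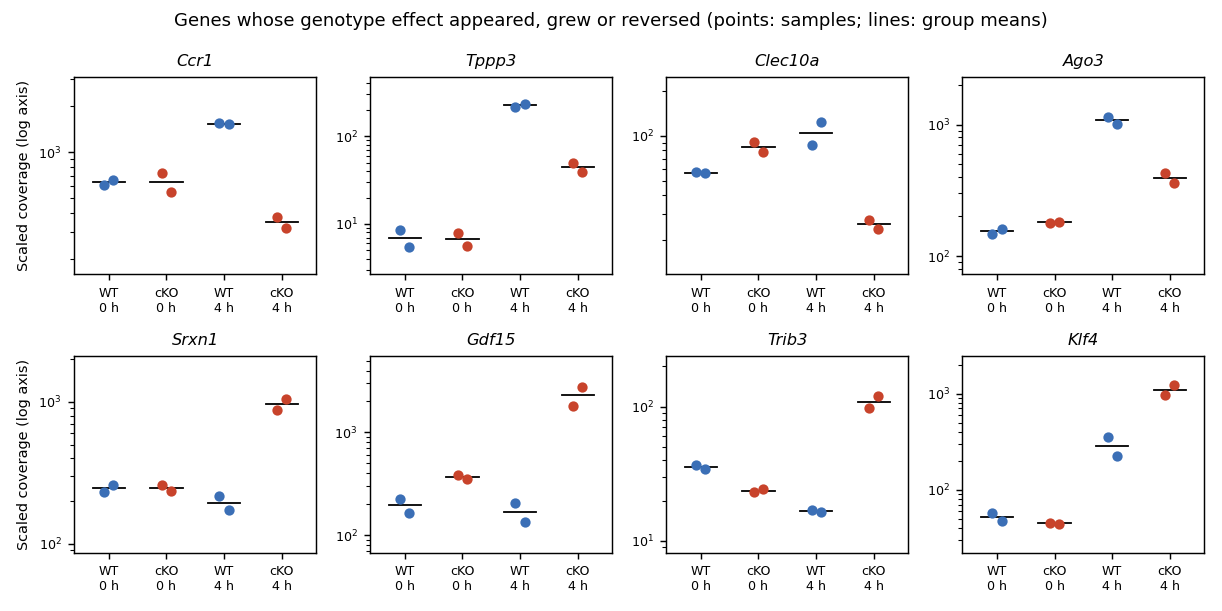
Scaled coverage (log y axis) of 8 genes in the 8 samples, WT in blue and cKO in red, with a line at each group mean. Ccr1, Tppp3, Clec10a and Ago3 lie lower in cKO than in WT at 4 h, Srxn1, Gdf15, Trib3 and Klf4 lie higher, and the genotypes are nearer to each other at 0 h.

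Where an effect vanished, resting cKO cells differed and stimulated ones no longer passed the genotype call. Pdpn (chromosome 4, 143267431 to 143299564), podoplanin, a mucin-type glycoprotein that macrophages raise on LPS, was at 19.9 and 19.6 (WT) against 92.8 and 81.3 (cKO) at 0 h. At 4 h it was at 834 and 992 (WT) against 762 and 846 (cKO), with overlapping genotypes. The effect went from 2.13 to -0.18 (shift -2.31, SE 0.18, adjusted p = 0.00685). Slc39a12, a zinc importer, was at 7.16 and 9.54 (WT) against 104 and 90.2 (cKO) at 0 h and at 2.23 and 2.11 (WT) against 3.08 and 2.01 (cKO) at 4 h (shift -3.35, SE 0.58, adjusted p = 0.0237). Penk, the proenkephalin gene, showed the opposite, with 262 and 208 (WT) against 49.8 and 15.3 (cKO) at 0 h and 47.3 and 31.5 (WT) against 36.5 and 42.5 (cKO) at 4 h, a shift of 3.10, SE 0.72, adjusted p = 0.049. Chst7, a sulfotransferase of the X chromosome, was at 17 and 24.9 (WT) against 5.85 and 5.58 (cKO) at 0 h and at 10 and 9.39 (WT) against 16.5 and 15.6 (cKO) at 4 h (shift 2.55, SE 0.49, adjusted p = 0.0302). Lck, a Src family kinase best known from T cells, was at 3.7 and 5.01 (WT) against 0.314 and 0.884 (cKO) at 0 h and 34.9 and 62.7 (WT) against 101 and 80.2 (cKO) at 4 h (shift 3.73, SE 0.76, adjusted p = 0.0349). For Chst7 and Lck both cKO samples were above both WT samples at 4 h. The T cell receptor segments Trav15d-3, at 0 and 0 (WT) against 62.4 and 55.2 (cKO) at 0 h, and Trav7n-4, at 0 and 1.61 (WT) against 149.8 and 173 (cKO) at 0 h, were listed at 0 in all samples at 4 h. Such segments have many near-identical copies.

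In 7 genes the effect shrank. Psd, an exchange factor for ARF6, was at 114 and 125 (WT) against 13.3 and 9.84 (cKO) at 0 h and at 476 and 421 (WT) against 295 and 279 (cKO) at 4 h, and its effect went from -3.38 to -0.64 (shift 2.73, SE 0.24, adjusted p = 0.00685). Limd2, a LIM domain protein, shifted by 0.73, SE 0.17, adjusted p = 0.0462, and Lamc1, a laminin chain, by -0.92, SE 0.18, adjusted p = 0.0324. Among the 328 genes with small effects, Cd53, a tetraspanin of leukocytes, was the higher in cKO at rest, at 7223 and 6962 (WT) against 10678 and 9859 (cKO), and the lower after stimulation, at 16149.7 and 14528 (WT) against 11579 and 11322 (cKO) (shift -0.95, SE 0.13, adjusted p = 0.0128). Sec63, a subunit of the ER translocon, behaved in the same way, with a shift of -0.93, SE 0.12, adjusted p = 0.0106. Ogfrl1 went the other way, with a shift of 1.01, SE 0.14, adjusted p = 0.015.

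Core autophagy genes, the process named in the title of the series, were read as a list of 43, all of which were tested. Upward shifts were called for 7 of the 43 (16.3%, against 3.63% of all genes) and downward shifts for 0, with a median shift of 0.21 against 0.00 for all tested genes. In all 7 the effect appeared at 4 h. They were the initiating kinases Ulk1 and Ulk2, their partner Atg13, the lipid transfer proteins Atg2a and Atg2b, the LC3 gene Map1lc3b and the cargo receptor Nbr1. Map1lc3b (chromosome 8, 121590361 to 121598760) was at 1250.2 and 1214 (WT) against 1243 and 1150.2 (cKO) at 0 h and 841 and 757 (WT) against 1468 and 1526 (cKO) at 4 h. It overlapped at rest, and changed on stimulation by -0.63 in WT and 0.32 in cKO on the log2 scale, which was -1.83 and -0.67 as deposited (shift 0.95, SE 0.11, adjusted p = 0.00952). Ulk1 (chromosome 5, 110784488 to 110810097) fell in both genotypes, from 523 and 575 (WT) against 508 and 520.5 (cKO) at 0 h to 131 and 125 (WT) against 213 and 242 (cKO) at 4 h (shift 0.92, SE 0.14, adjusted p = 0.0164). Atg2a shifted by 1.05, SE 0.14, adjusted p = 0.0122, Ulk2 by 0.85, SE 0.13, adjusted p = 0.0171 and Nbr1 by 0.68, SE 0.12, adjusted p = 0.0261. Of the 7, Atg13 and Atg2b were not called under every scaling, and 5 were. The list had 10 upward and 0 downward calls with values as deposited, and 8 and 1 at equal total coverage, 6 and 1 under quantile normalization and 5 and 1 with median-centring.

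Of the mTORC1 and Rag GTPase list, 26 genes were tested, 3 shifted upward (11.5%) and 1 downward (3.85%). Sesn2 (chromosome 4, 132492032 to 132510501), a leucine sensor that restrains mTORC1 and is a stress gene, was at 236 and 256 (WT) against 191 and 183 (cKO) at 0 h and at 47.7 and 45.2 (WT) against 130.1 and 143 (cKO) at 4 h. The change on stimulation was -2.40 in WT and -0.46 in cKO on the log2 scale (shift 1.95, SE 0.16, adjusted p = 0.00685). Sesn1 shifted by 1.28, SE 0.27, adjusted p = 0.038 and Flcn, which acts on the Rag GTPases, by 0.93, SE 0.19, adjusted p = 0.0374, the latter not under quantile normalization. Lamtor3, part of the Ragulator scaffold on lysosomes, went down, from 1141 and 1040.0 (WT) against 1295 and 1342 (cKO) at 0 h to 1569 and 1480.2 (WT) against 991 and 974 (cKO) at 4 h (shift -0.91, SE 0.10, adjusted p = 0.00899). In the FoxO list 3 of 23 genes shifted upward (13.0%) and 2 downward (8.7%). Foxo3 (chromosome 10, 42181841 to 42276755), a transcription factor held back by Akt, was shut down in both genotypes and less in cKO. It was at 694 and 887 (WT) against 702 and 664 (cKO) at 0 h and at 17 and 23.4 (WT) against 64.8 and 87.8 (cKO) at 4 h (shift 2.11, SE 0.30, adjusted p = 0.015). Foxo1 shifted by 1.10, SE 0.15, adjusted p = 0.0142 and Pik3r1, the regulatory subunit of PI3-kinase, by 1.15, SE 0.14, adjusted p = 0.0106. The catalytic subunits went down, Pik3cb by 0.78 and, in fewer scalings, Pik3cg by 0.70. Of 33 lysosomal genes 1 shifted upward (3.03%) and 3 downward (9.09%), which turned to 3 and 0 with values as deposited and 3 and 1 at equal total coverage. Lipa, the acid lipase, was called under every scaling (shift 0.94, SE 0.18, adjusted p = 0.0299). Asah1 and Atp6v1a, among the downward genes, were not, with shifts of -0.51 and -0.48.

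The called stress genes shifted upward. Of 22 tested genes of the unfolded protein response and ATF4 pathway, 4 were called upward (18.2%) and 0 downward, with a median shift of 0.33, and 1 was called downward under quantile normalization. The list's median effect was -0.26 at 0 h and 0.36 at 4 h. Trib3 (chromosome 2, 152337422 to 152344032), a pseudokinase gene driven by ATF4 and CHOP, is a reversing gene. It was at 37.1 and 34.5 (WT) against 23.1 and 24.2 (cKO) at 0 h and 16.9 and 16.4 (WT) against 97.1 and 119 (cKO) at 4 h, so the effect went from -0.59 to 2.69 (shift 3.28, SE 0.29, adjusted p = 0.00685). Asns, asparagine synthetase, was at 123 and 112 (WT) against 111 and 109 (cKO) at 0 h and 286 and 241 (WT) against 525 and 522 (cKO) at 4 h (shift 1.08, SE 0.16, adjusted p = 0.0159). Dnajb9, a chaperone of the ER, shifted by 1.35, SE 0.29, adjusted p = 0.0388, and Sesn2, described above, is the fourth. Of 20 genes of the NRF2 antioxidant list, 4 were called upward (20%) and 0 downward, with a median shift of 0.37. The upward calls of that list were 7 with values as deposited, 6 at equal total coverage, 5 under quantile normalization, 3 with median-centring and 1 without the intensity trend. Srxn1 (chromosome 2, 152105516 to 152111376), sulfiredoxin, overlapped at rest at 231 and 259 (WT) against 259.9 and 235 (cKO), and split at 4 h at 216 and 173 (WT) against 876 and 1052 (cKO) (shift 2.30, SE 0.20, adjusted p = 0.00685). Gclm (chromosome 3, 122245557 to 122270732), a subunit of the enzyme that makes glutathione, was at 3224 and 2782 (WT) against 2622 and 2865 (cKO) at 0 h and 881 and 738 (WT) against 1786 and 2260.0 (cKO) at 4 h (shift 1.44, SE 0.20, adjusted p = 0.0142). Hmox1, heme oxygenase 1, shifted by 1.17, SE 0.18, adjusted p = 0.0171. The fourth was Keap1, which holds NRF2 in check, with a shift of 0.54, SE 0.12, adjusted p = 0.039 that was not called at equal total coverage.

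These genes were read for known response elements in RefSeq promoter windows of GRCm38.p6, which run from 250 bases before to 50 after a start site. The elements searched on both strands were the ATF4-type CARE (TGATGNAA) and the antioxidant element ARE (TGACNNNGC), chosen after the data were seen. A CARE lay in 5 of the 21 stress genes with a window (23.8%), against 2.94% of all tested genes with one. An ARE lay in 8 of 17 NRF2 genes (47.1%), against 16.7%. Among all shifts both elements had the higher share in downward ones, at 3.0% of upward and 3.99% of downward shifts for the CARE and 17.8% and 21.1% for the ARE. The stretches are shown because these genes are described above. Capitals mark the element, and letters run 5′ to 3′ on the gene's strand.
Trib3 CARE, chr2:152344029-152344056, minus strand: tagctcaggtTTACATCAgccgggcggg
Asns CARE, chr6:7693215-7693242, minus strand: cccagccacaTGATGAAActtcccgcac
Srxn1 ARE, chr2:152105542-152105569, plus strand: gcagtgggcaGCTAGGTCAgagtgagac
Gclm ARE, chr3:122245413-122245440, plus strand: gctcccgggcGCACCGTCAactctcacg

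In the inflammatory lists most members were not called. Of 23 cytokines tested, 1 shifted upward (4.35%) and 3 downward (13.0%), with a median of -0.62. Il1rn, which blocks the IL-1 receptor, was at 275 and 344 (WT) against 564 and 493 (cKO) at 0 h and 67748 and 54642 (WT) against 46019.9 and 41081 (cKO) at 4 h, and its effect at 0 h vanished (shift -1.26, SE 0.21, adjusted p = 0.022). Il1a is described above. Il15 shifted by -0.88 and was not called under every scaling. Tnfsf10, the death ligand TRAIL, went from 3.99 and 3.2 (WT) against 2.21 and 1.84 (cKO) at 0 h to 886 and 811 (WT) against 1156 and 1124 (cKO) at 4 h (shift 1.22, SE 0.27, adjusted p = 0.0426). Il1b was at 71.9 and 85.4 (WT) against 61.5 and 74.4 (cKO) at 0 h and 574766 and 343855 (WT) against 182202 and 176604 (cKO) at 4 h, and missed the threshold (shift -1.10, SE 0.32, adjusted p = 0.0872). Tnf overlapped at 4 h, with a shift of -0.43, SE 0.30, adjusted p = 0.434. Of 26 genes of chemokines and their receptors 1 shifted upward (3.85%) and 4 downward (15.4%), with a median of -0.46. With values as deposited the upward and downward calls were 3 and 2 in the chemokine list and 3 and 2 in the cytokine list, so the downward excess of calls flipped there, and at equal total coverage they were 3 and 3 in both lists. The medians stayed below 0 (-0.30 in both lists as deposited). The downward genes included Ccr1 and the ligands Ccl12 and Ccl9, neither of the ligands called under every scaling. Ccl9 was at 16930.5 and 15879.8 (WT) against 9816 and 10065 (cKO) at 4 h (shift -0.81), and Ccl12, listed at 0 in all 4 samples at 0 h, at 5603 and 4683 (WT) against 1521 and 1298 (cKO) at 4 h. Cxcl10 (chromosome 5, 92346638 to 92348889), the interferon-induced ligand of CXCR3, went up, from 23.3 and 14 (WT) against 3.97 and 5.19 (cKO) at 0 h to 287505 and 239617 (WT) against 202088 and 213246 (cKO) at 4 h (shift 1.63, SE 0.34, adjusted p = 0.0366). It was below WT in both conditions, and its effect went from -1.97 to -0.34.

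Among 26 genes of the TLR pathway 1 shifted upward (3.85%) and 3 downward (11.5%), an order that turned to 4 and 2 with values as deposited, at equal total coverage and under quantile normalization. Tlr4 (chromosome 4, 66827584 to 66930284), the receptor for LPS, was at 509 and 573 (WT) against 730.2 and 710.4 (cKO) at 0 h and 238 and 233 (WT) against 129.5 and 136 (cKO) at 4 h. It was the higher in cKO at rest and the lower after stimulation (shift -1.24, SE 0.12, adjusted p = 0.0075). Tlr6, which pairs with TLR2 to sense lipopeptides, shifted by -1.89, SE 0.42, adjusted p = 0.0418, and Tlr8 by -0.96, the latter not under every scaling. Tlr3, a sensor of double-stranded RNA, went up by 0.86, SE 0.12, adjusted p = 0.0142. Of 23 genes of NF-κB and its feedback 3 shifted upward (13.0%) and 2 downward (8.7%), which turned to 1 and 2 with median-centring. Nfkbie (shift 1.08, SE 0.21, adjusted p = 0.0318), Nfkbiz (shift 0.95, SE 0.22, adjusted p = 0.0446) and Relb (shift 0.67, SE 0.15, adjusted p = 0.0449) were lower in resting cKO cells and overlapped WT after stimulation. Nfkbie, an inhibitor of NF-κB, was at 261 and 286 (WT) against 135 and 166 (cKO) at 0 h and 9194 and 7204 (WT) against 8799 and 10079.7 (cKO) at 4 h. The kinase gene Chuk and the adaptor gene Traf3 went down by 0.64 and 0.79, not under every scaling. Of the JAK-STAT list 1 of 36 genes (Irf7) was called upward (2.78%) and 3 downward (8.33%), and of the MAP kinase list 1 of 22 upward (4.55%) and 2 downward (9.09%). Both orders turned with values as deposited (5 and 0, and 3 and 0), at equal total coverage (2 and 0, and 2 and 1) and under quantile normalization (2 and 1 in each).

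Of 30 interferon-stimulated genes tested, 5 shifted upward (16.7%) and 0 downward, and the list's median effect was -0.33 at 0 h and -0.13 at 4 h. Its upward calls were 9 with values as deposited, 7 at equal total coverage and under quantile normalization, and 4 with median-centring. There were 2 with the replicate block and 1 without the intensity trend. At 0 h 9 of the 30 were called lower and 1 higher in cKO, where 11.3% of all genes were called in either direction, and 6 and 1 with values as deposited, where the median was -0.21. Ifi44 (chromosome 3, 151730922 to 151749960) was at 8.57 and 10.2 (WT) against 1.38 and 1.64 (cKO) at 0 h and at 2482 and 2127 (WT) against 1848 and 1952 (cKO) at 4 h. It rose by 7.93 in WT and 10.21 in cKO on the log2 scale (shift 2.28, SE 0.23, adjusted p = 0.0075). Oas3, a sensor that makes 2′-5′ oligoadenylates, and Cmpk2, a nucleotide kinase, were lower in cKO at 0 h and no longer at 4 h, with shifts of 1.28, SE 0.24, adjusted p = 0.0298 and 1.12, SE 0.26, adjusted p = 0.0465. Isg20, an RNA exonuclease, overlapped at rest and reached 636 and 517 (WT) against 1449 and 1569 (cKO) at 4 h (shift 1.40, SE 0.23, adjusted p = 0.0217). Irf7, the factor that amplifies the type I response, was at 160.0 and 196 (WT) against 138 and 140.3 (cKO) at 0 h and 15894 and 13218 (WT) against 22196 and 21401 (cKO) at 4 h (shift 0.94, SE 0.17, adjusted p = 0.0269). Of 16 IFNγ-induced GTPases 2 shifted upward (12.5%), Gvin1 by 1.06, SE 0.16, adjusted p = 0.0171 and Gbp3 by 0.67, SE 0.15, adjusted p = 0.0404, and 0 downward, and both belong to families of close copies. The upward calls of that list were 5 with values as deposited, 4 at equal total coverage and under quantile normalization, and 1 with median-centring. The MHC class I and proteasome list had 4 of 16 upward (25%) and 0 downward, with a median of 0.45. It had 9 upward calls with values as deposited, 8 at equal total coverage, 9 under quantile normalization and 3 with median-centring. Tapbp, tapasin, which loads peptides on class I, was at 3576 and 4232 (WT) against 3575 and 3645 (cKO) at 0 h and 31619 and 27569 (WT) against 50121 and 53250.5 (cKO) at 4 h (shift 0.92, SE 0.16, adjusted p = 0.0255). The other three were H2-Q4 (shift 0.98, SE 0.16, adjusted p = 0.0217), and the immunoproteasome subunits Psmb8 (shift 0.71, SE 0.12, adjusted p = 0.0224) and Psmb10 (shift 0.57, SE 0.13, adjusted p = 0.0496). Of 15 class II and costimulation genes 1 was called, Cd80, with a downward shift of -1.01, SE 0.10, adjusted p = 0.00771 (6.67%). At rest it was the higher in cKO, at 143 and 136 (WT) against 255 and 251 (cKO), and at 4 h close to WT, at 2177 and 2163 (WT) against 2029.7 and 1869.9 (cKO).

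The interferon-stimulated response element ISRE, searched on both strands by its consensus, lay in 13 of the 24 listed interferon-stimulated genes that have a window (54.2%), against 4.1% of all tested genes. It also lay in 9 of the 58 genes with a window whose lower expression in resting cKO cells vanished (15.5%), and in 6.0% of all upward shifts and 4.88% of all downward ones. The 2 shown belong to genes of that kind.
Cxcl10 ISRE, chr5:92349084-92349111, minus strand: cacgctttgGAAAGTGAAActtacctca
Oas3 ISRE, chr5:120777716-120777743, minus strand: cagggaggaGAAAACGAAAgtgaaggga
A κB element lay in 55.6% of the NF-κB list and 12.2% of all tested genes, with 14.3% of upward and 12% of downward shifts, and the E-box CACGTG in 12% and 10.6% against 11.1%. A match is a string of letters in a window and was not tested for binding.

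Of 22 genes of cleavage and polyadenylation 1 was called upward and 1 downward (4.55% each, against 3.63% and 3.68% of all genes). They were the scaffold gene Sympk (shift 0.61, SE 0.11, adjusted p = 0.0264) and, not under every scaling, the poly(A) polymerase Papolg (shift -1.03). Of 30 SR proteins and hnRNPs 1 went upward (3.33%) and 4 downward (13.3%), which turned to 3 and 1 with values as deposited. Srsf1 was lower in resting cKO cells, at 883 and 758 (WT) against 530.1 and 463 (cKO), and not after stimulation, at 600.1 and 531 (WT) against 691 and 614 (cKO) (shift 0.93, SE 0.17, adjusted p = 0.0265). Hnrnpa1 (shift -0.87), Hnrnpa2b1 (shift -0.75) and Hnrnph1 (shift -0.99) overlapped at rest and were lower in cKO at 4 h, and none of them was called under every scaling, while Clk1, a kinase of SR proteins, was (shift -0.82, SE 0.19, adjusted p = 0.0455). Of 36 genes of mRNA decay 2 went upward (5.56%) and 3 downward (8.33%), which turned to 4 and 1 with values as deposited and at equal total coverage. The upward genes were the terminal uridylyl transferase Tut4 (shift 0.89, SE 0.11, adjusted p = 0.0112) and its relative Tut7 (shift 0.46, SE 0.11, adjusted p = 0.0491).

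Of 24 cholesterol synthesis genes 0 shifted upward and 4 downward (16.7%), with a median of -0.25, and 1 was called upward with values as deposited and under quantile normalization. Hmgcs1 overlapped at rest and was at 2829 and 2147 (WT) against 1379 and 1255 (cKO) at 4 h (shift -0.92, SE 0.21, adjusted p = 0.0443), and Sc5d, a desaturase late in the pathway, was at 1438 and 1070.2 (WT) against 619 and 537 (cKO) (shift -1.51, SE 0.22, adjusted p = 0.015). Idi1 shifted by -1.45 and was not called under quantile normalization. In the list of lipid efflux and fatty acids, 2 of 21 genes went upward (9.52%) and 0 downward, the cholesterol exporter Abca1 (shift 0.82, SE 0.12, adjusted p = 0.015) and the LXRα gene Nr1h3 (shift 0.75, SE 0.14, adjusted p = 0.0272). The calls were 4 and 0 with values as deposited, 3 and 0 at equal total coverage and 2 and 1 with median-centring. Of 27 macrophage identity genes 2 went upward (7.41%) and 3 downward (11.1%), against 5 and 2 with values as deposited and 4 and 3 under quantile normalization. Cebpb, a transcription factor of emergency myelopoiesis, was at 2741 and 2012 (WT) against 1712 and 1509 (cKO) at 0 h and 10211 and 7429 (WT) against 14774 and 17899 (cKO) at 4 h (shift 1.45, SE 0.28, adjusted p = 0.0319). The downward genes were Fcgr2b, Fcgr3 and, not under every scaling, the scavenger receptor Msr1 (shift -0.73).

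Of 28 inflammasome and cell death genes 0 went upward and 3 downward (10.7%), against 1 and 1 with values as deposited and at equal total coverage. Bcl2l1, which encodes the survival protein BCL-XL, was at 526 and 594 (WT) against 521 and 560.4 (cKO) at 0 h and 1689 and 1673 (WT) against 759 and 827 (cKO) at 4 h (shift -1.03, SE 0.12, adjusted p = 0.00984), and Nlrp1b and Nlrc4 were not called under every scaling. Glycolysis had 1 of 26 upward (3.85%; 4 with values as deposited, 3 at equal total coverage, 2 under quantile normalization, and 1 upward and 1 downward with median-centring), the hexokinase Hk2 (shift 0.80, SE 0.15, adjusted p = 0.0306), and DNA replication and mitosis 2 of 40 upward (5.0%), Ccnd1 (shift 1.20, SE 0.17, adjusted p = 0.0153) and, not under every scaling, Ccnd3. In 3 lists limma called 0 genes, and up to 2 under other scalings. Among 37 ribosomal protein genes the median shift was -0.03, among 28 oxidative phosphorylation genes -0.08, and among 16 genes of nitric oxide, arginine and itaconate -0.15. An unadjusted p under 0.05 from limma was found for 4, 6 and 4 of these genes, and for 4043 of all 16114 tested genes. Nos2, the inducible nitric oxide synthase, was listed at 0 in all samples at 0 h and was at 34009 and 31264 (WT) against 57908 and 56894 (cKO) at 4 h, with an adjusted p of 0.0566 from limma. All the lists were drawn up with results of these data known, their medians move with the median gene under the other scalings, and counts are descriptions of those lists.

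**Figure D4:**
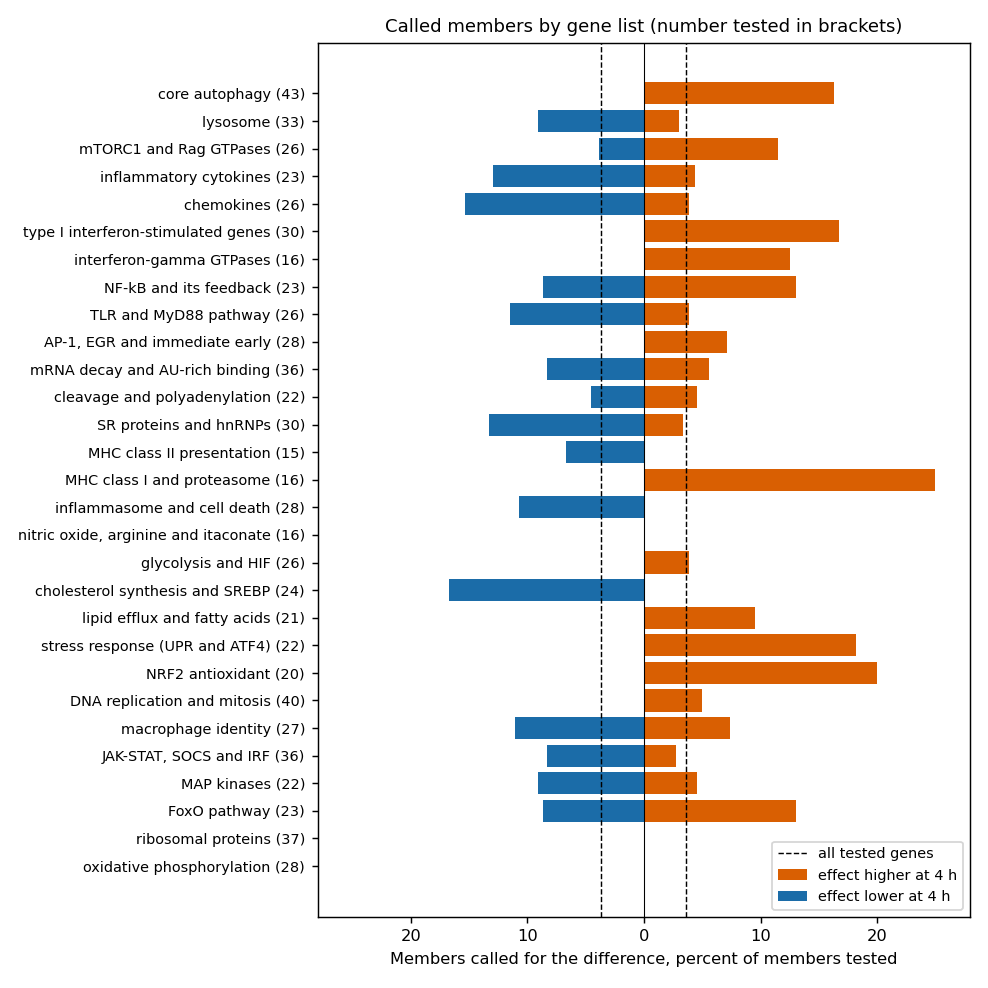
Share of the tested members of each list called for the difference (x axis, percent), with upward shifts to the right in orange and downward shifts to the left in blue; dashed lines mark 3.63% and 3.68% for all tested genes. MHC class I, the stress lists, interferon-stimulated genes and core autophagy extend to the right and have no downward calls under this scaling (autophagy has 1 at equal total coverage, under quantile normalization and with median-centring, and the unfolded protein response list 1 under quantile normalization), and cholesterol synthesis extends to the left with no upward call, though it has 1 with values as deposited and under quantile normalization.

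Genes repressed by stimulation shifted upward more often than downward under these 4 scalings and median-centring, while the order among induced genes depended on the scaling. Averaged over genotypes, 3494 genes were induced (21.7%) and 3887 repressed (24.1%) at a fold above 2 and an adjusted p under 0.05, relative to the median gene as stated above. Of the repressed genes 194 shifted upward (4.99%) and 75 downward (1.93%), as in Foxo3, Ctsk and Ulk1, which fell less in cKO. Of the induced genes 145 shifted upward (4.15%) and 212 downward (6.07%), as in Ago3 and Tppp3, which rose less in cKO. Genes in neither group had 246 upward (2.82%) and 306 downward (3.5%). The median shift was 0.14 for repressed, -0.04 for induced and -0.02 for other genes. Among repressed genes the upward and downward calls were 260 and 46 with values as deposited, 186 and 42 at equal total coverage, 185 and 82 under quantile normalization and 159 and 88 with median-centring. Among induced genes they were 306 and 113, 230 and 146, 221 and 217, and 116 and 236 in the same order, so the downward excess flipped under each of these but median-centring. The median shift of repressed genes stayed above that of induced genes in each of them (0.32 against 0.16, 0.25 against 0.07, 0.06 against 0.00 and 0.08 against -0.10).

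**Figure D5:**
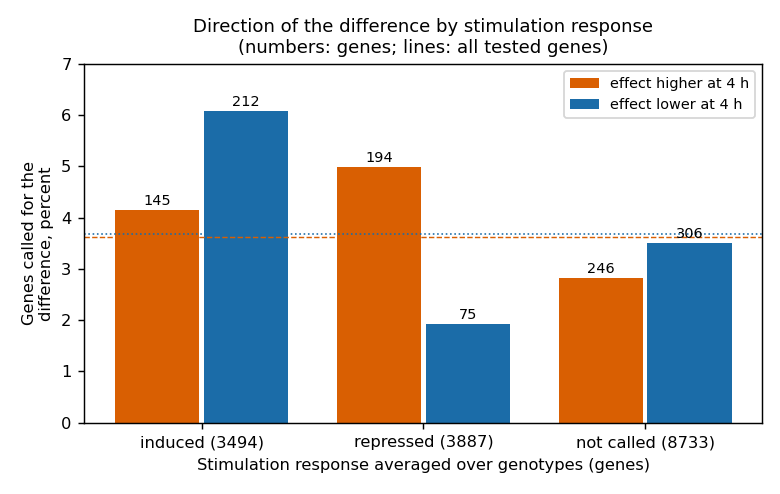
Share of genes called for the difference (y axis, percent) among genes induced, repressed or not called for the stimulation averaged over genotypes (x axis), upward shifts in orange and downward in blue, with gene numbers above the bars and lines for all tested genes. Upward shifts exceed downward ones among repressed genes, and the order is the other way round among induced genes, which flips with values as deposited, at equal total coverage and under quantile normalization.

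Genes that shifted up and down differed in their 3′UTRs. In the longest GENCODE M21 coding transcript of each gene, which gave a 3′UTR of at least 50 bases for 82.3% of tested genes, the median was 5.11 UGUA per kilobase. It was 4.49 in genes with an upward and 6.51 in genes with a downward shift. The order held among genes whose effect appeared (4.5 against 6.14), vanished (4.75 against 6.8) and reversed (4.14 against 5.89), and was the opposite among those whose effect grew (5.24 against 4.75, with 25 and 16 genes). Base composition moved with it, as the median GC content of these 3′UTRs was 48.4% in upward and 40.1% in downward shifts, against 44.6% for all. Median 3′UTR length was 1270 bases in upward and 1476 in downward shifts, against 1085 bases. That order was the opposite among genes whose effect appeared (1425 against 1253) or grew (2625 against 1479). These are descriptions, and the part of base composition or of 3′UTR use in the coverage values was not tested. Coverage is averaged over a gene, so that a change in 3′UTR length and a change in transcript number cannot be told apart here.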

How the data were processed

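RNA-seq was done on 8 samples of mouse BMDMs, 2 for each genotype and condition, grouped by the titles in the submitters' labels, since their treatment field names the stimulation for the 0 h samples too. Reads were aligned with HISAT2 2.2.1 and assembled with StringTie 2.1.7 on GRCm38 according to the submitters' processing notes. The authors deposited 1 coverage value per gene and sample (a signal whose unit the files do not name) in 2 tables, 1 for each condition, which were joined by gene symbol. Total coverage differed little. The methods of the study give a minimum number of reads sequenced per sample, but the tables hold no read counts per gene, so no counting interval is given and no count model was used. The tables also hold the authors' own comparisons as fold changes, p-values and FDR, which were not used, and 0 other columns of per-sample values were left out. Strand-specific counting is not stated in the sources used here, so that overlapping antisense genes cannot be told apart.

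Samples were scaled by the median of ratios. Genes with a mean scaled coverage of at least 0.5 were fitted in 1 model of 4 groups with limma 3.58.1 (R 4.3.3, intensity trend, empirical Bayes) on log2(coverage + 0.1), on which scale all effects and shifts are given and which understates changes of low genes. Shifts were called at a Benjamini-Hochberg adjusted p under 0.05, and every adjusted p in the text is from that test. Genotype effects were called at a fold above 1.5 and p under 0.05. In simulated data of 15616 genes for the difference of effects, 75% of genes with a log2 shift of 1 and 92% with a shift of 2 were recovered, with 8 false calls. Shifts were planted only in genes well above the coverage filter. The noise was normal, with a spread set by the expression level alone. These rates therefore need not hold for low genes or for the gene-to-gene spread of the real data. Alternatives were other scalings, pseudocount and filters, no trend, a fold rule, a replicate block and leaving out each sample.

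Genes were named by rule, with a mean of at least 10 in a group and no provisional symbol, as those of largest shift in each class (5, or 3 where the effect vanished, grew or shrank) and up to 5 called genes of each list. The rule was also run without genes listed at 0, and genes named outside it, such as Il1b, Tnf, Nos2 and Ddx3y, were chosen after their values were seen. The members, the lists and the tests were chosen with earlier results of these data known. Positions are from GENCODE M21 (GRCm38), where 15911 of 16114 symbols matched, and promoter sequences from RefSeq (GRCm38.p6), where 72.7% matched. Some genes are not reported here.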

Additional observations from a re-analysis of the deposited data

Results flagged for a closer look

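The genotype effect differed between resting and stimulated cells, by a test of the difference itself (limma, adjusted p under 0.05), in 1178 genes. In 62 of them the effect was called in opposite directions at 0 h and 4 h. Among reversing genes with no group listed at 0, a group mean of at least 10 and no provisional symbol, those with the largest upward shifts, on the log2 scale, were Adgre4 (4.25), Spry1 (3.63), Frat2 (3.57), Enpp4 (3.52) and Abhd15 (3.39). Those with the largest downward shifts were Dppa3 (-2.75), Zfp51 (-2.26), Il1a (-2.02), Ighm (-1.90) and Myh10 (-1.90). Myh10, a non-muscle myosin, was not called with values as deposited, at equal total coverage or with the replicate block.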

How the results depend on the processing

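Without the intensity trend 434 genes were called (254 upward, 180 downward), with 230 appearing, 26 growing, 99 vanishing and 17 in neither class. A fold above 1.5 with an unadjusted p under 0.05 gave 2474 (1373 and 1101). Values as deposited gave 1035 upward and 247 downward, and equal total coverage 301 downward. Quantile normalization gave 21 growing, 304 vanishing and 14 shrinking. With the replicate number as a block 743 genes were called (383 and 360). Over the tested genes, deviations of same-numbered samples at 0 h and 4 h had correlations of 0.022 in WT and 0.026 in cKO. The titles repeat the numbers at both times. Whether same-numbered samples came from the same pool is not stated, and these correlations cannot decide it. Of the lists, core autophagy had 2 upward calls without the trend. Chemokines had 2 downward calls with values as deposited and without the trend. Interferon-stimulated genes had 9 upward calls as deposited, 3 with no filter, 1 without the trend and 2 with the block. SR proteins and hnRNPs had 1 downward call as deposited (and 3 upward), 2 at equal total coverage, 2 with no filter and 0 without the trend, and cholesterol synthesis 2 with no filter, 0 without the trend and 2 with the block. The stress and NRF2 lists had 7 upward calls each as deposited, and NRF2 1 without the trend. Of genes that were not called, Nudt21 had 0.37 and Cpsf6 -0.36 and Cpsf7 -0.04 under quantile normalization, Cpsf6 -0.01 and Cpsf7 -0.07 without WT 4 h replicate 2, and Cpsf7 -0.03 without cKO 0 h replicate 3, all of the other sign, and over all 8 such fits Cpsf6 ranged from -0.01 to 0.28 and Cpsf7 from -0.07 to 0.21. Leaving out 1 sample each gave 0 to 1723 calls, 0 to 826 upward and 0 to 897 downward, with 0 to 937 appearing, 0 to 72 growing, 0 to 189 vanishing, 0 to 10 shrinking, 0 to 97 reversing and 0 to 418 in neither class. The lists then had 0 to 7 calls for autophagy, 0 to 5 for chemokines, 0 to 7 for interferon-stimulated genes, 0 to 6 for SR proteins, 0 to 10 for cholesterol, 0 to 6 for stress and 0 to 5 for NRF2. The cause was not tested. Of 153 named and called genes, 113 were called under all 4 scalings, 95 lost the call without the trend, 59 with the block, and all 153 without cKO 0 h replicate 3, cKO 0 h replicate 4 or cKO 4 h replicate 4.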
